A study of Mus musculus with 6 samples.

Results

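The genes described here are the ligands and receptors of the tumour necrosis factor (TNF) superfamily whose symbols begin with Tnfsf or Tnfrsf and a number, with Tnfsf11, Tnfrsf11a and Tnfrsf11b left out. The mRNA count table listed 28 of them among 17973 mRNAs: 10 ligands and 18 receptors. All 28 passed the filter on low counts. Whole lungs of C57BL/6 mice gave 6 libraries, 3 labelled control (C7, C8 and C9) and 3 labelled silicosis (N129, N136 and N138). Silicosis is a scarring lung disease caused by inhaled crystalline silica. The silicosis lungs had received 8 mg of silica in 40 µL of saline through the trachea once, lungs were taken after 90 days, and the series text names sterile saline for the comparison samples. The labels state neither age nor sex, nor whether each library came from its own mouse, and the spread that the p-values rest on may therefore be technical. Transcripts of the alveolar and airway genes Sftpc, Ager and Scgb1a1 were abundant in all 6 libraries, the lowest value being 495 CPM (normalised counts at a library total of 1000000) for Ager in N138. The libraries held between 33698920 and 44000748 counts on mRNAs.

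TNF superfamily ligands are mostly trimeric proteins of the cell surface that can be shed, and their receptors carry cysteine-rich repeats outside the cell. Inside the cell, receptors either bind TRAF adaptors, which lead to NF-kB and survival, or carry a death domain, which can also lead to caspases. Decoy receptors bind ligand without a working signalling tail. In lung the family is known for controlling inflammation, costimulation of T cells, survival of B cells and death of epithelial cells.

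Of the 28 genes, 11 were called higher in silicosis, 2 were called lower and 15 did not pass. A gene is called where the adjusted p of edgeR's quasi-likelihood test, taken over all 15808 mRNAs tested, is below 0.05. Among all mRNAs tested, 31.8% were called, 15.3% as higher and 16.5% as lower, against 46.4% of the members. The higher genes were the ligands Tnfsf4, Tnfsf8, Tnfsf9 and Tnfsf18 and the receptors Tnfrsf1b, Tnfrsf4, Tnfrsf8, Tnfrsf9, Tnfrsf13b, Tnfrsf23 and Tnfrsf26. The lower genes were the ligand Tnfsf12 and the receptor Tnfrsf19. The median log2 fold change was 0.51 over the ligands and 0.30 over the receptors, against 0.02 over all mRNAs tested. A gap between the 2 groups of libraries, with no overlap, was present in 14 members higher and 3 lower in silicosis, and in 47.7% of all mRNAs tested (23.7% higher and 24% lower). With a change of at least 2-fold required as well, 10 members were higher and 1 lower, against 5.39% and 3.03% of all mRNAs tested. Leaving out any single library left between 8 and 10 members called higher and between 2 and 3 called lower. The calls of Tnfsf4, Tnfsf9 and Tnfrsf13b ended in some of these fits, as given with each gene, and the ligands called higher fell from 4 to 2 without C8. Lungs were measured whole, so more cells of a type and more RNA per cell cannot be told apart.

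**Figure D1:**
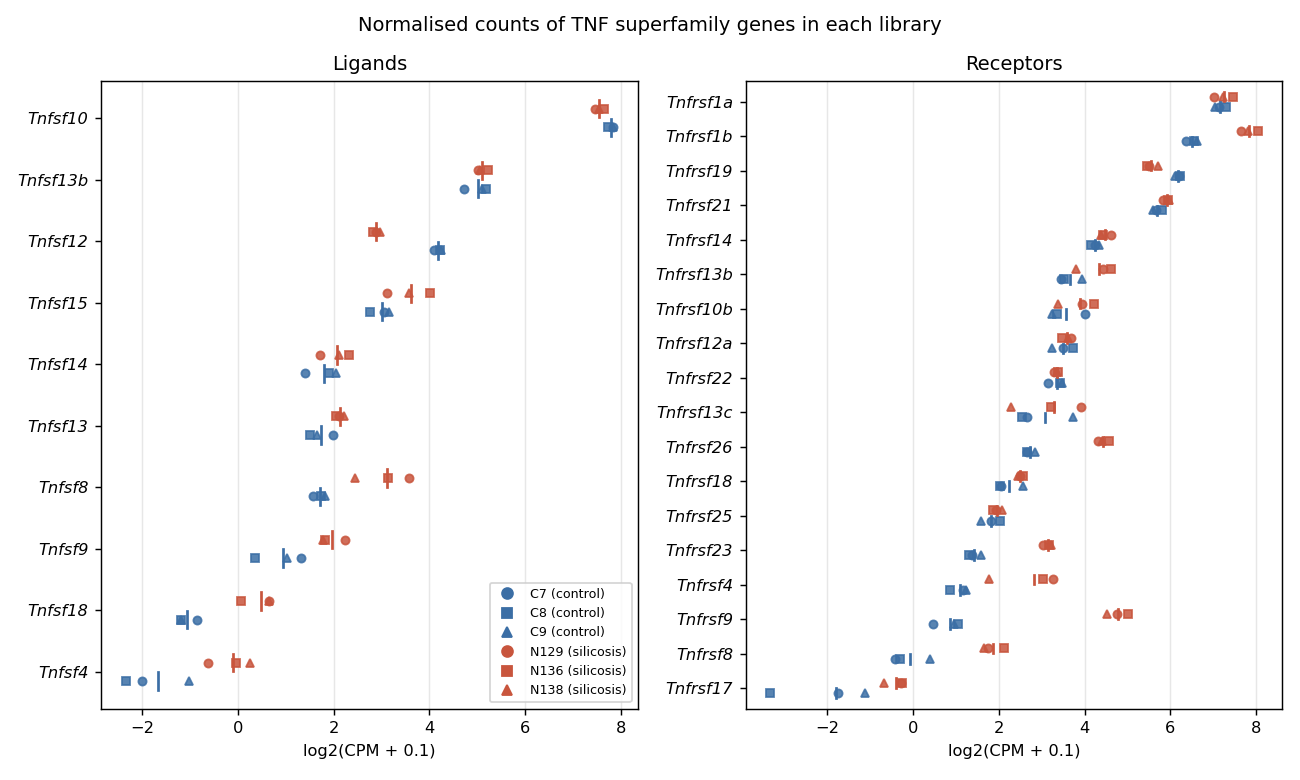
Normalised counts of each of the 10 ligands and 18 receptors in the 6 libraries, on a log2(CPM + 0.1) axis, with controls in blue, silicosis in red and a bar at each group mean. Tnfsf10 was the most counted ligand and Tnfrsf1a and Tnfrsf1b the most counted receptors, while Tnfrsf9 shows the widest gap between the groups.

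**Figure D2:**
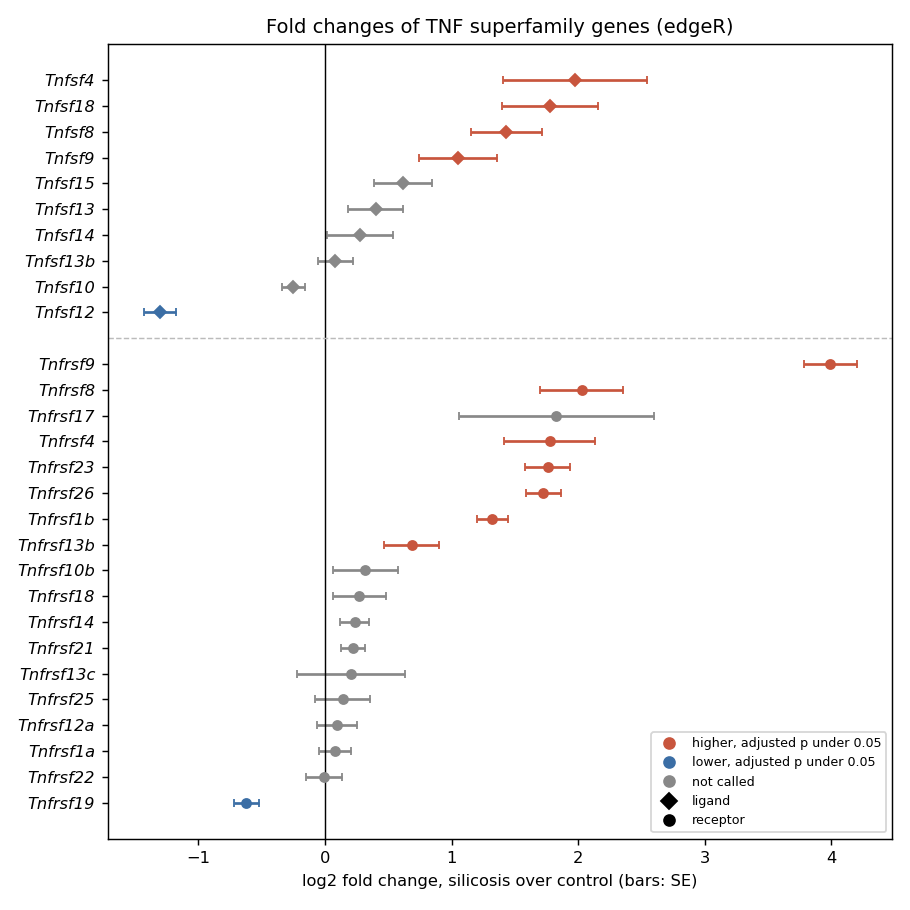
Log2 fold change, silicosis over control, of each member with its SE as bars, ligands as diamonds and receptors as circles. Tnfrsf9 lies farthest to the right at 3.99 and Tnfsf12 farthest to the left at -1.31, and grey symbols mark the 15 genes that were not called.

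Levels differed widely among members. Levels of different genes are compared here per kilobase of the longest annotated transcript. On that scale the highest ligand in control lung was Tnfsf10 (TRAIL, a death-inducing ligand) at a mean of 44.8 CPM per kilobase, followed by Tnfsf12 (TWEAK) at 12.6 and Tnfsf13b (BAFF, a survival factor of B cells) at 6.77. The highest receptors were Tnfrsf1a at 66.2, Tnfrsf1b at 23.9 and Tnfrsf19 at 17.8 CPM per kilobase. In silicosis the level of Tnfrsf1b was 59.7 CPM per kilobase beside 69.9 for Tnfrsf1a. The longest transcript need not be the one expressed, so these levels are approximate.

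The receptors of TNF itself had different values. Tnfrsf1b (TNFR2), which binds TRAF2 and is found mainly on immune and endothelial cells, had 81.8, 93.4 and 98.2 CPM in C7, C8 and C9 and 198, 263 and 222 CPM in N129, N136 and N138. All silicosis libraries lay above all controls, and the log2 fold change was 1.32 (SE 0.12, edgeR adjusted p = 0.000152). Tnfrsf1a (TNFR1), the widely expressed receptor with a death domain, had 141, 157 and 130 CPM in the controls and 128.6, 174 and 149 CPM in silicosis. These groups overlapped, with a log2 fold change of 0.08 (SE 0.13, edgeR adjusted p = 0.674). The log2 ratio of Tnfrsf1b to Tnfrsf1a was between -0.78 and -0.41 in the controls and between 0.58 and 0.63 in silicosis. The difference of 1.25 was larger than the spread within either group (two-sided exact permutation p = 0.1, the smallest that 3 against 3 libraries allow). This ratio was chosen after the values were seen, so its p is no separate evidence. Tnf, the ligand of both, is outside the symbol rule and rose from 1.34, 0.981 and 1.33 CPM to 26.7, 12.4 and 10.9 CPM (edgeR log2 fold change 3.77 with SE 0.37, adjusted p = 0.000189). Monocyte markers moved in the same direction as Tnfrsf1b: 3 of 5 rose, led by Cd14 with a log2 fold change of 2.60 and Ms4a7 with 1.97. Markers said to lead a list are those called with the lowest p, not those with the largest change. The summed level of the monocyte markers was between 102 and 132 CPM in controls and between 244 and 293 CPM in silicosis. Of 7 macrophage markers 4 rose and 1 fell, led by Lyz2 (1.15) and Mertk (-0.44). Their sums were between 3255 and 3838 CPM in controls and between 5535 and 10002 CPM in silicosis. Most of that was Lyz2, with means of 2977 CPM in controls and 6595 CPM in silicosis. The sum was highest in N136 like Tnfrsf1b, as were 48.2% of all mRNAs called higher, among the silicosis libraries. Of 6 neutrophil markers 3 rose, led by S100a8 (2.30) and S100a9 (1.05), with sums between 84.0 and 149 CPM and between 229 and 358 CPM. Of 6 endothelial markers 4 fell, as given with Tnfrsf19. The part of these cells in the rise of Tnfrsf1b was not tested.

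The costimulatory receptors of T cells and their ligands held most of the rises. Of the receptors Tnfrsf4, Tnfrsf8, Tnfrsf9, Tnfrsf14 and Tnfrsf18, 3 of 5 were called higher, and of the matching ligands 4 of 5. None was called lower, and 15.3% of all mRNAs tested were called higher. These groups leave out Tnfrsf25, also a receptor of T cells, its ligand Tnfsf15, and the related gene Cd27. None of these was called (edgeR adjusted p of 0.661, 0.0694 and 0.613). Tnfrsf9 (4-1BB), an activation-induced receptor of T cells and other leukocytes, had the steepest change in the family. It had 52, 83 and 71 counts in the controls and 1026, 1401 and 821 in silicosis, or 1.29, 1.99 and 1.85 CPM against 26.8, 32.1 and 22.8 CPM. All 3 silicosis libraries lay far above all 3 controls. The control mean was 1.71 ± 0.369 CPM and the silicosis mean 27.2 ± 4.67 CPM (SD, n = 3), a 15.9-fold difference (edgeR log2 fold change 3.99 with SE 0.21, adjusted p = 9.05e-06). Its ligand Tnfsf9 (4-1BBL), made by antigen-presenting cells, had 2.38, 1.17 and 1.93 CPM in the controls and 4.62, 3.42 and 3.34 CPM in silicosis. The groups did not overlap (edgeR log2 fold change 1.05 with SE 0.31, adjusted p = 0.0291). That call ended without C8, C9 or N129, with adjusted p of 0.0865, 0.0659 and 0.107. Of the 50-base windows of Tnfsf9, 11.2% are also found in transcripts of another gene, Gm11110.

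Tnfrsf8 (CD30), a receptor of activated lymphocytes, had 0.646, 0.718 and 1.23 CPM in the controls and 3.29, 4.24 and 3.03 CPM in silicosis (edgeR log2 fold change 2.03 with SE 0.33, adjusted p = 0.00195). Its ligand Tnfsf8 (CD30L) had 2.88, 3.23 and 3.42 CPM in the controls and 11.7, 8.65 and 5.31 CPM in silicosis (log2 fold change 1.43, SE 0.28). For both genes the lowest silicosis library was N138, and it still lay above the controls. Tnfrsf4 (OX40), a costimulatory receptor of activated and regulatory T cells, had 2.14, 1.72 and 2.24 CPM in the controls against 9.47, 8.05 and 3.34 CPM in silicosis (log2 fold change 1.77, SE 0.36). Its ligand Tnfsf4 (OX40L) was rare, with 6, 4 and 15 counts in the controls and 21, 38 and 39 in silicosis. The groups did not overlap (edgeR log2 fold change 1.97 with SE 0.57, adjusted p = 0.0275), but the call ended without C7, C8, N136 or N138 (adjusted p of 0.0974, 0.0996, 0.0660 and 0.0698), and without C9 the log2 fold change was 2.74.

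Tnfsf18 (GITRL), a ligand of antigen-presenting and endothelial cells, was also rare, with 18, 14 and 13 counts in the controls and 56, 41 and 53 in silicosis. It rose by 1.78 on the log2 scale (SE 0.38, edgeR adjusted p = 0.00768). Its receptor Tnfrsf18 (GITR), known from regulatory T cells, had 4.05, 4.0 and 5.85 CPM in the controls and 5.58, 5.78 and 5.40 CPM in silicosis, where C9 was the highest of all 6 libraries (edgeR log2 fold change 0.27 with SE 0.21, adjusted p = 0.349). Tnfrsf18 shares 18.4% of its windows with Gm16008. Tnfrsf14 (HVEM), which binds LIGHT and the inhibitory receptor BTLA, had 19.0, 17.8 and 20.0 CPM in the controls and 24.5, 21.4 and 20.8 CPM in silicosis. These groups did not overlap, but the difference did not pass (edgeR log2 fold change 0.23 with SE 0.12, adjusted p = 0.156). Tnfsf14 (LIGHT) ranged from 2.53 to 4.02 CPM in the controls and from 3.18 to 4.89 CPM in silicosis (edgeR log2 fold change 0.28 with SE 0.26, adjusted p = 0.451).

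Lymphocyte markers were read beside these genes. Of 9 general T cell markers tested, 0 were called by edgeR and 0 by DESeq2, and 0 had an unadjusted edgeR p under 0.05. Their summed level was between 126 and 178 CPM in controls and between 91.7 and 218 CPM in silicosis. Of the markers of activated and regulatory T cells 6 of 6 rose, led by Pdcd1 with a log2 fold change of 3.46 and Ctla4 with 2.82, and their sum was between 41.9 and 43.2 CPM in controls and 133, 133 and 64.2 CPM in N129, N136 and N138. N138 was thus the lowest silicosis library for these markers, as it was for Tnfrsf4, Tnfsf8, Tnfrsf8 and Tnfrsf9. Over the 11 members called higher, N138 was the lowest silicosis library in 6, N129 in 4 and N136 in 1, and over all 2421 mRNAs called higher N138 was the lowest in 47.9%. The part of T cell number or state in these rises was not tested. Without N138 the log2 fold change of Tnfrsf4 was 2.10.

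**Figure D3:**
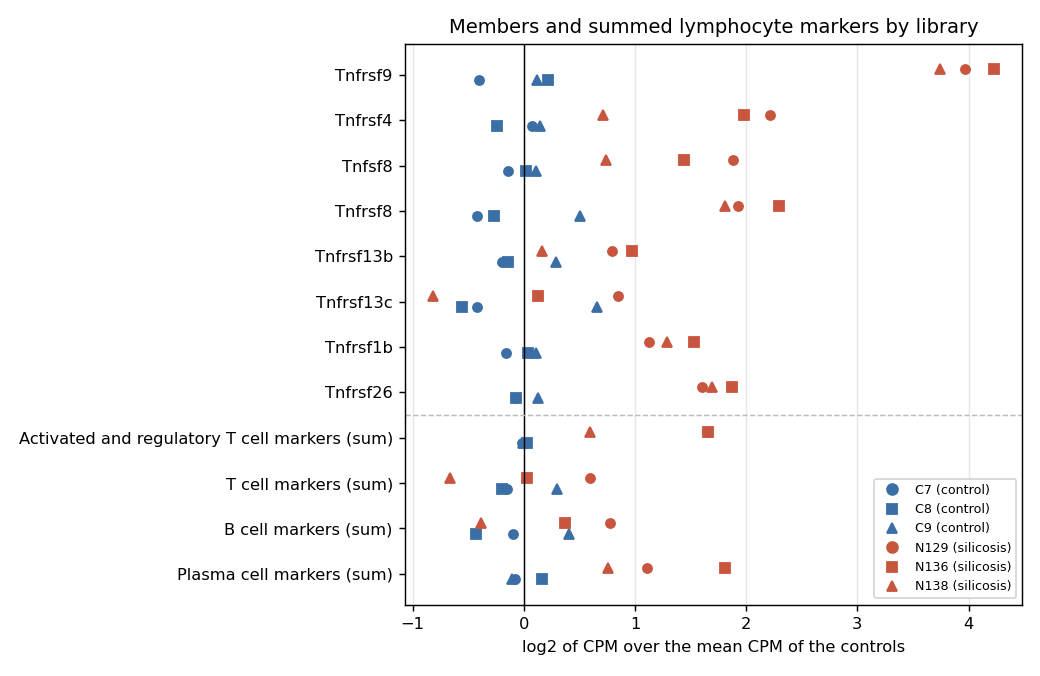
Level of 8 members and the summed level of 4 marker lists in each library, as log2 of CPM over the control mean, with controls in blue and silicosis in red. N138 (red triangle) is the lowest silicosis library in every row except Tnfrsf1b and Tnfrsf26. The groups overlap for Tnfrsf13b, Tnfrsf13c and the sums of the general T cell and B cell markers, and do not overlap in the other rows.

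The promoters of 22 of the 28 members were found in the RefSeq table for GRCm38.p6, an earlier build than the GRCm39 named by the submitters. Each window runs from 250 bases before to 50 bases after an annotated start, and some genes have more than one start, giving 26 windows. They were searched on both strands for the consensus NF-kB site and for the AP-1 site TGANTCA; in the windows printed here no NF-kB match overlapped an AP-1 match. An NF-kB match was present in 3 of the 26 windows, against 8.46% of all 32851 promoters in the table, and an AP-1 match in 6, against 7.81%. The 6 windows belong to 5 genes, since the windows of both Tnfsf13b starts overlap and hold the same AP-1 match. Besides Tnfrsf9 and Tnfrsf8, the genes with an AP-1 match were Tnfsf13b, Tnfsf13 and Tnfsf14, none of them called. Of the 8 members called higher with a promoter, 2 held an NF-kB match, and of the 13 not called, 1. Promoters of Tnfsf4, Tnfsf9 and Tnfrsf26, also called higher, were not found. The promoters of Tnfrsf9 and Tnfrsf8, the steepest rises among the receptors, each held both motifs. The second start of Tnfrsf25, a receptor that was not called, held the NF-kB consensus alone. These 3 windows are printed 5′ to 3′ on the strand of the gene, with the matched bases in capitals.
Tnfrsf9, second start, chr4:150927749-150928048, plus strand: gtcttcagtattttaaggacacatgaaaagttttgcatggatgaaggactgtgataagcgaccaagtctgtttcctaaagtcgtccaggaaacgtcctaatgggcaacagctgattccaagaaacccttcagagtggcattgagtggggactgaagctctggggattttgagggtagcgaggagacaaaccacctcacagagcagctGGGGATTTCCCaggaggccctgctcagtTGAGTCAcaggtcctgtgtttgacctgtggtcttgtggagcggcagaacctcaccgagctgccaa
Tnfrsf8, chr4:145315115-145315414, minus strand: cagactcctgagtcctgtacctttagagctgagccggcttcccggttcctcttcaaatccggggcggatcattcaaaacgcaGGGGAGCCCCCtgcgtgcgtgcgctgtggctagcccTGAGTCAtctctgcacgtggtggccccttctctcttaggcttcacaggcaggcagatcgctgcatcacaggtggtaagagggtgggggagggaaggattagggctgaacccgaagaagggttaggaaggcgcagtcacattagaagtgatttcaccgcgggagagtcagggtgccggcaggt
Tnfrsf25, second start, chr4:152116093-152116392, plus strand: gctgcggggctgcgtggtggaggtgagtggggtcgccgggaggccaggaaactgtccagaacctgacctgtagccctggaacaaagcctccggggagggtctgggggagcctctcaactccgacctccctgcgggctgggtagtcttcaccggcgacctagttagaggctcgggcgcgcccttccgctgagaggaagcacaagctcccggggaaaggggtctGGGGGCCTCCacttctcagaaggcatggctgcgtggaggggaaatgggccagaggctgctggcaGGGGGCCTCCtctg
Counted from the start, the NF-kB match of Tnfrsf9 spans bases -43 to -33 and its AP-1 match bases -15 to -9. In Tnfrsf8 the NF-kB match spans bases -168 to -158 and the AP-1 match bases -132 to -126. The other start of Tnfrsf9 held neither motif. A match describes the letters only, and whether any factor binds there was not measured.

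In the BAFF and APRIL system, which keeps B cells and plasma cells alive, 1 of 3 receptors, TACI, was called higher, and 0 of 2 ligands. Among all mRNAs tested, 15.3% were called higher. Tnfrsf13b (TACI), a receptor of both ligands on B cells, had 10.9, 11.3 and 15.2 CPM in the controls and 21.6, 24.5 and 13.9 CPM in silicosis. N138 fell below C9, so the groups overlapped (edgeR log2 fold change 0.69 with SE 0.22, adjusted p = 0.0404). The call ended without C7, C8, N129 or N136, with adjusted p of 0.129, 0.125, 0.114 and 0.131. Tnfrsf13c (the BAFF receptor) ranged from 5.72 to 13.2 CPM in the controls, C9 being the highest, and from 4.79 to 15.1 CPM in silicosis, N138 being the lowest (edgeR log2 fold change 0.21 with SE 0.43, adjusted p = 0.743). Its sign turned without C8 (-0.01) or N129 (-0.26). Tnfrsf17 (BCMA), the receptor of plasma cells, had 8, 0 and 14 counts in the controls and 28, 32 and 19 in silicosis, without overlap (edgeR log2 fold change 1.83 with SE 0.77, adjusted p = 0.101). Its log2 fold change was 1.23 without C8, 2.72 without C9 and 2.81 with limma-voom, and it passed in none of these. The ligand Tnfsf13b (BAFF) had a mean of 32.3 ± 5.36 CPM in controls and 34.2 ± 2.62 CPM in silicosis (SD, n = 3), and Tnfsf13 (APRIL) 3.22 ± 0.567 and 4.25 ± 0.264 CPM. Neither ligand was called, with edgeR adjusted p of 0.686 and 0.191.

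B cell markers, like Tnfrsf13c, were highest among controls in C9 and lowest among silicosis libraries in N138. Their summed level was 317, 251 and 450 CPM in C7, C8 and C9 and 581, 439 and 260 CPM in N129, N136 and N138. Of 8 plasma cell markers 6 rose, and the lowest p belonged to Jchain, with a log2 fold change of 4.02, and Sdc1, with 0.64. Their sums were between 447 and 537 CPM in controls and between 812 and 1681 CPM in silicosis, N138 again the lowest of the 3. Most of the control sum was Sdc1 and Xbp1, with means of 221 and 161 CPM, and in silicosis Jchain had the highest mean, 485 CPM. The part of B cells and plasma cells in the values of Tnfrsf13b, Tnfrsf13c and Tnfrsf17 was not tested.

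Tnfsf12 was the ligand that fell. TWEAK, its product, is a widely expressed cytokine that drives tissue repair and fibroblast and epithelial growth through its receptor Fn14. Tnfsf12 had 17.0, 18.5 and 18.9 CPM in the controls and 7.33, 6.95 and 7.71 CPM in silicosis. All silicosis libraries lay below all controls, and the group means were 18.1 ± 1.01 and 7.33 ± 0.378 CPM (SD, n = 3). The difference passed (edgeR log2 fold change -1.31 with SE 0.13, adjusted p = 0.000177). The receptor Tnfrsf12a (Fn14) ranged from 9.29 to 13.2 CPM in the controls and from 11.1 to 12.9 CPM in silicosis (edgeR log2 fold change 0.10 with SE 0.16, adjusted p = 0.684). Tnfsf12 and its neighbour Tnfsf13 are joined by a read-through transcript listed as Tnfsfm13, which shares 48.9% of the windows of Tnfsf12 and 51.9% of those of Tnfsf13, so reads could be split among the 3 rows. The Tnfsfm13 row had 97, 90 and 42 counts in the controls and 84, 57 and 90 in silicosis, beside 683, 774 and 723 and then 281, 303 and 277 counts in the Tnfsf12 row. The opposite-strand RNA Tnfsf13os of the lncRNA table had between 58 and 110 counts per library.

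Of the TRAIL receptor Tnfrsf10b and the receptors Tnfrsf22, Tnfrsf23 and Tnfrsf26, 2 of 4 rose, where 15.3% of all mRNAs tested were called higher. Tnfsf10 (TRAIL) had 231, 212 and 228 CPM in the controls and 176, 201 and 187 CPM in silicosis. The groups did not overlap, but the small difference did not pass (edgeR log2 fold change -0.25 with SE 0.09, adjusted p = 0.0620). It passed with DESeq2 (adjusted p = 0.0440) and without N136 (edgeR adjusted p = 0.0386), and stands at 0.0477 in the authors' deposited table. Tnfrsf10b (DR5), the mouse TRAIL receptor with a death domain, ranged from 9.29 to 15.9 CPM in the controls and from 10.4 to 18.5 CPM in silicosis (edgeR log2 fold change 0.32 with SE 0.26, adjusted p = 0.370). Tnfrsf22 and Tnfrsf23 are decoy TRAIL receptors of the mouse without a death domain, and Tnfrsf26 is a related receptor beside them. Tnfrsf23 had 2.48, 2.37 and 2.92 CPM in the controls and 8.14, 8.95 and 9.24 CPM in silicosis (edgeR log2 fold change 1.76 with SE 0.18, adjusted p = 0.000222). Tnfrsf26 had 6.19, 6.20 and 7.10 CPM in the controls and 19.7, 23.8 and 21.0 CPM in silicosis (edgeR log2 fold change 1.73 with SE 0.14, adjusted p = 7.11e-05). Both were higher in every silicosis library than in any control.

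Tnfrsf22, which lies between these 2 genes, had 8.79, 10.6 and 11.0 CPM in the controls and 9.68, 10.3 and 10.2 CPM in silicosis (edgeR log2 fold change -0.01 with SE 0.14, adjusted p = 0.978). The log2 ratio of Tnfrsf23 to Tnfrsf22 was between -2.12 and -1.78 in the controls and between -0.25 and -0.15 in silicosis, a difference of 1.73 (two-sided exact permutation p = 0.1, the smallest possible). For Tnfrsf26 to Tnfrsf22 the difference was 1.71, also without overlap. Both ratios were chosen after the values were seen, so neither is separate evidence. Tnfrsf22 and Tnfrsf23 are near copies: 27.9% of the windows of Tnfrsf22 and 23.4% of those of Tnfrsf23 are found in other genes, mostly in each other, and 16.3% and 11.7% with windows of 100 bases, so part of their counts is uncertain. The sources used here do not say how shared reads were counted.

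Death-domain receptors among the members gave no call. Over Tnfrsf1a, Tnfrsf10b, Tnfrsf21 and Tnfrsf25, 0 of 4 were called by edgeR and 0 by DESeq2, and 1, Tnfrsf21, had an unadjusted edgeR p under 0.05, where 31.8% of all mRNAs were called. Tnfrsf21 (DR6), known from neurons and lymphocytes, had 50.9, 55.9 and 48.0 CPM in the controls and 57.0, 61.0 and 62.7 CPM in silicosis, without overlap (edgeR log2 fold change 0.22 with SE 0.10, adjusted p = 0.105). Tnfrsf25 (DR3), a receptor of T cells and innate lymphoid cells, ranged from 2.90 to 4.0 CPM in the controls and from 3.53 to 4.15 CPM in silicosis (log2 fold change 0.14, SE 0.22). Its ligand Tnfsf15 (TL1A) ranged from 6.68 to 8.82 CPM in the controls and had 8.50, 16.0 and 11.9 CPM in silicosis (edgeR log2 fold change 0.62 with SE 0.23, adjusted p = 0.0694). Tnfsf15 passed with DESeq2 (adjusted p = 0.0356) and without N129 (log2 fold change 0.82, edgeR adjusted p = 0.0224).

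Tnfrsf19 (TROY) was the receptor that fell. TROY is an orphan receptor of epithelial and stem cells. It had 73.1, 74.5 and 68.9 CPM in the controls and 45.3, 43.5 and 52.0 CPM in silicosis, with no overlap (edgeR log2 fold change -0.62 with SE 0.10, adjusted p = 0.00181). Markers of alveolar type 1 and endothelial cells also fell. The 5 type 1 markers summed to between 2622 and 2899.9 CPM in controls and between 1270.5 and 1556 CPM in silicosis, with 4 of 5 lower, led by Akap5 (-1.19) and Rtkn2 (-0.99), and the 6 endothelial markers to between 3461 and 3898 CPM and between 1809 and 2011 CPM, with 4 of 6 lower, led by Tek (-0.97) and Cdh5 (-1.31). Other epithelial lists changed less often. Of 5 alveolar type 2 markers, 0 were called by edgeR and 0 by DESeq2, and 0 had an unadjusted edgeR p under 0.05. Of 4 airway markers 1 was lower, Scgb1a1 (-1.18), and 0 were higher. Fibroblast markers went both ways, 2 of 5 higher and 2 lower, Col1a1 with a log2 fold change of 1.02 and Tcf21 with -1.78. The part of these cells in the falls of Tnfrsf19 and Tnfsf12 was not tested.

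Ligands were then set against their receptors within each library, as log2 of the ratio of CPM with 0.1 CPM added to each. These ratios are not corrected for transcript length, so only their differences between groups are read. Of 15 known pairs, 3 ratios were higher and 3 lower in silicosis without overlap between the groups, and 9 overlapped. Among single mRNAs tested, 47.7% did not overlap between the groups. The widest fall was for Tnfsf9 over Tnfrsf9, which was 0.84, -0.71 and 0.06 in the controls and -2.51, -3.20 and -2.74 in silicosis. Ligand and receptor both rose, the receptor more, so the ratio fell by 2.87 on the log2 scale. Tnfsf12 over Tnfrsf12a was 0.60, 0.48 and 1.01 in the controls and -0.80, -0.66 and -0.64 in silicosis. The difference was -1.40. Tnfsf13b over Tnfrsf17 differed by -1.56, with 0 counts of the receptor in C8, and by -0.84 without that library. In the other direction, Tnf over Tnfrsf1a differed by 3.49, Tnf over Tnfrsf1b by 2.25 and Tnfsf18 over Tnfrsf18 by 1.25. Tnfsf4 and Tnfrsf4 both rose, and their ratio differed by 0.05. It was -3.17, -3.22 and -2.25 in the controls and -3.88, -3.07 and -1.54 in silicosis, where Tnfsf4 was highest in N138 and Tnfrsf4 in N129, and it differed by -0.54 with 0.5 CPM added. Tnfsf8 over Tnfrsf8 differed by -0.61 with overlap. Each of the 6 ratios without overlap had the smallest two-sided exact permutation p that the design allows, 0.1, or 0.25 adjusted over the 15 pairs, so no ratio could pass a threshold of 0.05.

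**Figure D4:**
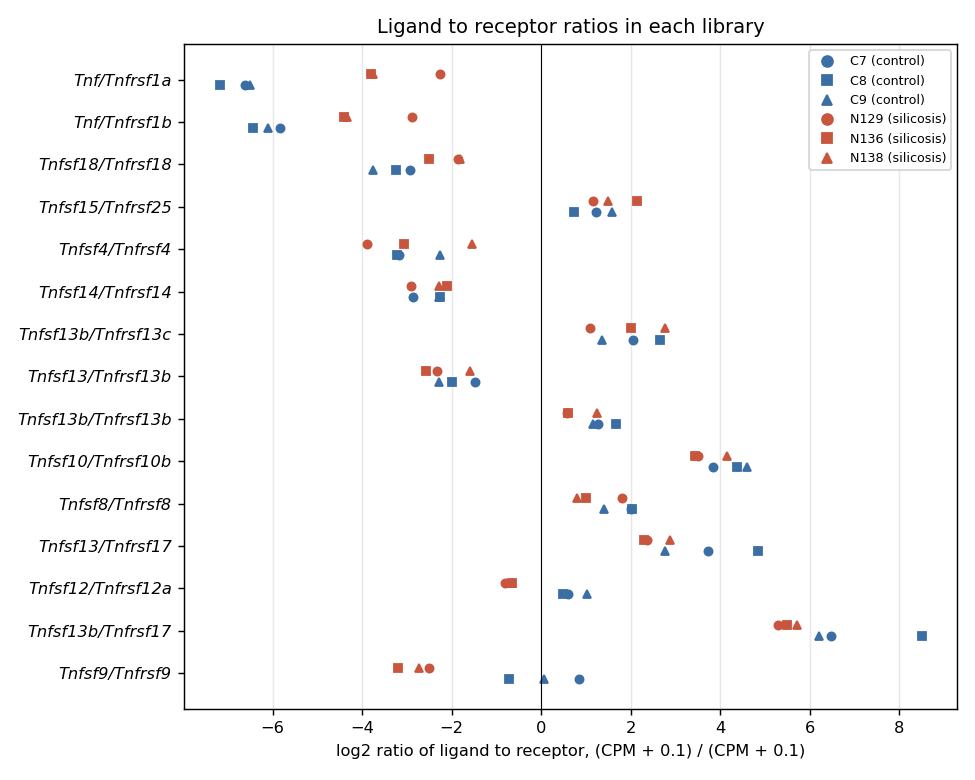
Log2 ratio of ligand to receptor CPM, with 0.1 added to each, for 15 pairs in each library, ordered by the difference between groups, with controls in blue and silicosis in red. Tnf over Tnfrsf1a and over Tnfrsf1b lie at the top with higher ratios in silicosis, and Tnfsf9 over Tnfrsf9 at the bottom with lower ratios in silicosis.

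Many members sit beside one another in the genome, and neighbours were not always called together. In the RefSeq gene order of GRCm38.p6, Tnfsf4 and Tnfsf18 are adjacent on chromosome 1 and both rose, as did Tnfrsf1b and Tnfrsf8 on chromosome 4. Of Tnfsf8 and Tnfsf15, adjacent on chromosome 4, the first rose and the second did not pass. Tnfrsf4 rose and its neighbour Tnfrsf18 did not pass; the log2 ratio between them differed by 1.32, without overlap. On chromosome 17, Tnfsf9 rose and Tnfsf14 did not pass; Cd70, which lies between them, had at most 6 counts in any library and was not tested. On chromosome 11, Tnfsf12 fell and its neighbour Tnfsf13 did not pass, and the ratio differed by -1.70. With Tnfrsf1b over Tnfrsf1a, Tnfrsf23 over Tnfrsf22 and Tnfrsf26 over Tnfrsf22 above, these were 5 ratios chosen after the values were seen. Each had no overlap and a two-sided exact permutation p of 0.1, also after adjustment over the 5.

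**Figure D5:**
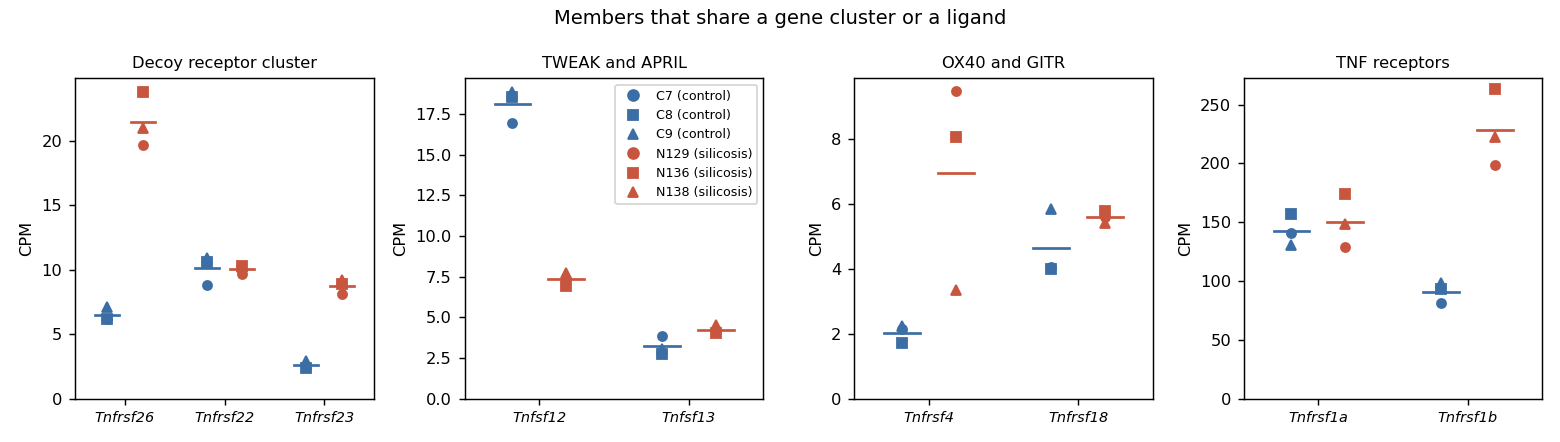
CPM of members that share a gene cluster (Tnfrsf26, Tnfrsf22 and Tnfrsf23; Tnfsf12 and Tnfsf13; Tnfrsf4 and Tnfrsf18) or a ligand (Tnfrsf1a and Tnfrsf1b) in each library, with controls in blue, silicosis in red and lines at group means. Tnfrsf22, Tnfrsf18 and Tnfrsf1a overlap between the groups and Tnfsf13 lies close, while the others are clear of overlap.

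Family genes with other names were 15, of which 14 were tested. Of these 2 rose, 0 fell and 12 did not pass, 14.3% called against 31.8% of all mRNAs. DESeq2 called 3 higher and 0 lower, and at an unadjusted edgeR p under 0.05 there were 4 higher and 1 lower. Fasl, the ligand of the death receptor Fas, had 5.71, 4.16 and 4.67 CPM in the controls and 3.94, 3.30 and 2.20 CPM in silicosis, without overlap (edgeR log2 fold change -0.62 with SE 0.26, adjusted p = 0.0999). It was singled out after its values were seen. Besides Tnf, Relt, an orphan receptor of haematopoietic cells, rose by 0.63 on the log2 scale (SE 0.17, edgeR adjusted p = 0.0203). The call of Relt ended without C7, C8 or N129 (adjusted p of 0.0799, 0.0513 and 0.0855), leaving 1 gene higher, and without N138 there were 4. Without N136 or N138, 1 gene was lower. Lta and Ltb, the lymphotoxins of lymphoid follicles, had log2 fold changes of 0.38 (SE 0.52) and 0.52 (SE 0.28) and did not pass. Ltb had 49.1, 30.9 and 19.2 CPM in N129, N136 and N138, and passed without N138 (edgeR adjusted p = 0.0140). Ngfr, the nerve growth factor receptor with a death domain, ranged from 1.364 to 3.44 CPM in the controls and from 2.39 to 7.39 CPM in silicosis, with overlap (edgeR log2 fold change 1.13 with SE 0.46, adjusted p = 0.0930). Fas itself and the costimulatory receptor Cd40 had log2 fold changes of 0.03 (SE 0.12) and -0.01 (SE 0.11). NK cell markers, 5 of 6 of which fell, led by Ncr1 (-1.62) and Gzma (-1.31), moved in the direction of Fasl, and their part in its values was not tested.

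Genes that carry or limit the signal inside the cell, read together with shedding genes, rose more often than they fell. Of 43 tested, 22 rose, 3 fell and 18 did not pass, 58.1% called against 31.8% of all mRNAs. Among all mRNAs tested, 15.3% were called higher and 16.5% lower. The count of rises was 12, 14 and 13 without C7, C8 and N129, and that of falls was 1 without C7, C8, N129 or N138. Among adaptors and ubiquitin ligases 6 of 13 rose, among kinases 3 of 10, in the death arm 3 of 5, among feedback genes 4 of 6, among shedding genes 3 of 4 and among NF-kB subunits 3 of 5. Birc2 (cIAP1), a ligase bound to TNF receptors through TRAF2, had the lowest p, with 56.8, 54.6 and 51.1 CPM in the controls and 118, 93.5 and 98.3 CPM in silicosis (edgeR log2 fold change 0.93 with SE 0.11, adjusted p = 0.000404). Of the NF-kB subunits, Relb and Nfkb2 of the alternative pathway rose by 1.0 (SE 0.14) and 0.93 (SE 0.14) on the log2 scale. Rel rose as well, by 0.76 (SE 0.13), and Nfkb1 did not pass (log2 fold change 0.19, SE 0.09). Adam17, the protease that sheds TNF and its receptors from the cell surface, rose by 0.65 (SE 0.09). The 3 genes that fell were Tab2, an adaptor of the kinase TAK1, with -0.38 (SE 0.10), the NF-kB subunit Rela with -0.33 (SE 0.11), and Cflar (c-FLIP), which blocks caspase-8, with -0.29 (SE 0.09). The call of Tab2 ended without N129, that of Cflar without C7, C8, N129 or N138, and that of Rela without C7, C8, C9, N136 or N138.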

How the data were processed

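RNA was measured in 6 whole-lung libraries. Trizol was used for extraction, per the labels' protocols. The authors deposited raw counts per gene. Tools listed per the submitters' processing notes, with no role or order, are featureCounts 2.0.0, HISAT2, Bowtie2, Trimmomatic 0.39 and DESeq2 1.36.0, and the build is GRCm39. The strand setting and annotation were not stated. The authors' comparison table, per the file headers, holds a log2 fold change and an adjusted p-value per gene. For the 28 members the signs were the same in all 28, and 26 lay on the same side of 0.05.

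Libraries held between 33698920 and 44000748 mRNA counts. Replicates were distinct, with chi-square per degree of freedom between 15.0 and 79.0 for pairs within a group. The whole mRNA table was fitted with edgeR 4.0.16 in R 4.3.3 (filterByExpr, TMM factors, two-sided quasi-likelihood F test, Benjamini-Hochberg over 15808 mRNAs, threshold 0.05). The SE is the log2 fold change divided by the square root of F. CPM use TMM-adjusted totals. Ratios were compared by the exact permutation test (scipy 1.17.1). The fit was also run on simulated data with known changes, drawn from its own means and spread. The simulation held far fewer changed genes than were called here, and its outcome is not reported here. Shared windows (50 bases, every 5 bases of the longest transcript, either strand) and transcript lengths came from GENCODE M21 for GRCm38. The alternatives were limma-voom (limma 3.58.1), DESeq2 1.42.0, its size factors within edgeR, an unfiltered table, each library left out, a 2-fold minimum, another pseudocount and windows of 100 bases. All members are named; of related and signalling genes, Tnf, Lta, Ltb and the 4 called with the lowest p in each direction, and of each marker list used the 2 called with the lowest p, except in the B cell list, whose single genes are not reported here. Other genes were singled out after their values were seen. Members, lists and role groups were chosen with earlier results of these data known.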

Additional observations from a re-analysis of the deposited data

How the results depend on the processing

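With DESeq2 size factors and with no filter, all 28 members kept their direction and their side of the threshold. With DESeq2, Tnfsf10 and Tnfsf15 passed as well, giving 2 ligands lower; with limma-voom no call changed and the value of Tnfrsf22 turned to 0.000758. Asking for 2-fold left 852 mRNAs higher and 479 lower, 1 member lower, 0 receptors lower, 1 related gene higher, and 1 signalling gene higher and 0 lower. With any one library left out, ligands higher ranged from 2 to 4 and lower from 1 to 2, related genes higher from 1 to 4 and lower from 0 to 1, and signalling genes higher from 12 to 20 and lower from 1 to 2; these fits have fewer libraries. Values near 0 changed sign among these fits: Tnfsf13b ranged from -0.051 to 0.17, Tnfrsf1a from -0.047 to 0.18, Tnfrsf12a from -0.026 to 0.23, Tnfrsf13c from -0.26 to 0.69, Tnfrsf22 from -0.10 to 0.050 and Lta from -0.30 to 0.75. So did the ratios of Tnfsf4 to Tnfrsf4 (-0.60 to 0.58, and -0.54 with 0.5 CPM added), Tnfsf13b to Tnfrsf13c (-0.47 to 0.36) and Tnfsf14 to Tnfrsf14 (-0.15 to 0.28). The cause was not tested. No paired analysis was possible because the groups share no replicate number. Low counts per library limit the precision of Tnfsf4, Tnfsf18 and Tnfrsf17.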
